A study of Mus musculus with 14 samples.

Results

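The 31 genes described here make, regulate and move cholesterol. They were chosen by name, from the enzymes that lead to cholesterol, the sensors of its level and the proteins that carry, esterify or export it. All 31 were found among the 21853 genes of the table, and all 31 passed the filter on low values in both tissues. RNA-seq of ovaries and uteruses came from 7 female C57BL/6J mice, 28 weeks old, which gave 14 libraries in 4 groups. The 4 OT mice were injected through the tail vein with medium that had been conditioned by human amniotic membrane-derived mesenchymal stem cells (AMSC-CM), 1 µL/g in each of 6 injections at intervals of 4 days. The 3 OC mice were given saline instead. Medium from 3 donors had been mixed and concentrated. Every mouse of both groups had first been given pregnant mare serum gonadotropin and, 48 h later, human chorionic gonadotropin, 10 IU of each. The values are FPKM, the fragments of a gene per kilobase of its transcript, corrected for how many fragments a library mapped, so levels can be compared between genes.

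Cells build cholesterol from acetyl-CoA through mevalonate, isoprenoids, squalene and lanosterol. When sterol in the endoplasmic reticulum is low, SCAP carries the transcription factor SREBP2 to the Golgi, where it is cut and freed to switch on the synthesis enzymes. INSIG proteins hold SCAP back when sterol is high, and the LXR receptors then switch on exporters. In the ovary, cholesterol is also the raw material of steroid hormones, which luteal cells make in large amounts from imported and stored sterol.

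The libraries could not be compared by depth, since FPKM are already scaled and the read numbers are unknown. The 75th percentile of FPKM lay between 15.3 and 15.8 in all 14 libraries, and the total ran from 374816 to 577494, highest in the OT1 uterus. The tissue labels held against marker genes. The summed level of 9 luteal and steroidogenic markers was 5650 to 7101 FPKM in ovaries and 23.7 to 30.8 FPKM in uteruses, while 8 smooth muscle markers summed to 7947 to 14810 FPKM in uteruses and 922 to 2832 FPKM in ovaries. Hoxa10, a gene of the uterus, ranged from 0.572 to 53.4 FPKM over the ovaries, highest in OC2 and OT3. In OT uteruses the 12 adipocyte markers summed to 1291 to 12000 FPKM, against 88.1 to 281 FPKM in OC uteruses, and in OT ovaries to 278 to 1885 FPKM against 231 to 350 FPKM. In such tissue samples, fewer cells of a type and less RNA per cell cannot be told apart.

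Promoter sequence was looked at because many of these genes are known to answer to SREBP2 or LXR. RefSeq windows of the GRCm38.p6 build, with the 250 bases before a transcript start, were found for 25 of the 31 genes. No window was matched for Fdps, Fdft1, Sqle, Npc1, Stard4 and Abcg1. On both strands, the core of a sterol regulatory element (TCACNCCA), to which SREBP binds, was found in the windows of Hmgcs1, Msmo1 and Srebf2, and in 3.67% of all 32851 windows. CCAAT, the box read by NF-Y, stood in 13 of the 14 synthesis genes with a window. Over all members it was in 20 of 32 windows (62.5%), against 33.8% of all windows. An LXR element, searched as GGTNA followed after 5 bases by GGTCA, was found in Abca1 among the members and in 0.177% of all windows. These matches are letters in a window and do not show that a factor is bound there. Nor does a missing match show that a gene has no such element.

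The sequences with a sterol regulatory element or an LXR element follow, 5′ to 3′ on the strand of the gene. Capitals mark the element, and in Hmgcs1 also its 3 CCAAT boxes, all on the opposite strand. Counted from the RefSeq transcript start, the element lies 137 to 130 bases before it in Hmgcs1 (chr13:119690101-119690350, plus strand), 177 to 170 bases before it in Msmo1 (chr8:64733738-64733765, minus strand), 162 to 155 bases before it in Srebf2 (chr15:82147097-82147124, plus strand), and 67 to 53 bases before it in Abca1 (chr4:53159896-53160145, minus strand). The gene starts of GENCODE, used for the gene positions given here, differ from these by 28 bases in Hmgcs1, 214 in Msmo1 and 88 in Srebf2 and are the same in Abca1. Counted from them, the Msmo1 element lies 37 to 44 bases inside the gene, and those of Hmgcs1 and Srebf2 lie 165 to 158 and 74 to 67 bases before it. For Msmo1 and Srebf2 the element and 10 bases on either side are shown.
Hmgcs1: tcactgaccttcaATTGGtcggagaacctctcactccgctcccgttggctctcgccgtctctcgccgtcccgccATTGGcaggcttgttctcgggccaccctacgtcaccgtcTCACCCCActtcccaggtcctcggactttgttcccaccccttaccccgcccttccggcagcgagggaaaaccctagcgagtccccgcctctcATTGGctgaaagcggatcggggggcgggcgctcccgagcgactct
Msmo1: ctcactattcTCACTCCAtccgcgcagc
Srebf2: tgacgcaccaTCACCCCAtgagccgctt
Abca1: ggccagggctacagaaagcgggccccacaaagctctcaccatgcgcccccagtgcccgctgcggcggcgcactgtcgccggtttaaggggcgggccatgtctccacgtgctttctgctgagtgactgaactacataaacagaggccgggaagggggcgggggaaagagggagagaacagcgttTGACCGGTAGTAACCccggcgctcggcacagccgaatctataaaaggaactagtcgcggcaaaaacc

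Across tissues, 18 of the 31 genes were higher in the ovary by at least 2-fold and none was lower. Fdps, Sc5d and Msmo1 led them. All 17 synthesis enzymes had an adjusted p under 0.05 in the direction of the ovary, and 15 of them also passed the fold. Of the SREBP control genes Scap and Insig1 passed both, and no LXR or efflux gene did. Insig2 and Mylip were the only members lower in the ovary at an adjusted p under 0.05, each by less than 2-fold.

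These tests were run with limma on log2(FPKM + 0.1), where the mean of the ovary groups was set against that of the uterus groups, with Benjamini-Hochberg adjustment over 14557 genes. A gene was called at an absolute log2 difference of at least 1 and an adjusted p under 0.05. By that rule 9.59% of all tested genes were called higher in the ovary and 10% lower, against 18 and 0 of the members. With no fold required, 23 members were higher, against 26.8% of all genes, and 2 lower, against 26.1%. In 16 members every ovary was above every uterus, against 13.5% of all genes, and in 2 every ovary was below, against 11.5%. The median difference of the members was 1.74 log2 units, against 0.00 over all tested genes. With the OC mice alone 19 members were called higher and 1 lower, and with the OT mice alone 17 were called higher.

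The first part of the pathway runs from acetyl-CoA to squalene, and 7 of its 8 genes were called higher in the ovary. Fdps (chr3:89093588-89101959), whose product makes farnesyl diphosphate, stood at 329, 271 and 294 FPKM in the OC ovaries and at 264, 445, 350 and 268 FPKM in the OT ovaries. In the uterus it stood at 16.7, 10.0 and 11.6 FPKM in the OC mice and at 57.9, 9.78, 30.2 and 13.96 FPKM in the OT mice. Every ovary was above every uterus, and the difference was 4.21 log2 units (standard error 0.32, adjusted p = 2.07e-07, limma), or 18.6-fold. Part of this value is uncertain, since the annotated gene Gm43738 overlaps Fdps on the same strand.

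Hmgcs1 (chr13:119690379-119708260) makes HMG-CoA, the substrate of the step that yields mevalonate, and was the highest member in the ovary. It reached 476, 358 and 385 FPKM in OC ovaries and 376, 547, 427 and 356 FPKM in OT ovaries. The difference from the uterus was 3.29 log2 units (standard error 0.25, adjusted p = 1.78e-07, limma), 9.76-fold. Mvd, which makes isopentenyl diphosphate, was 8.74-fold higher in the ovary, and Idi1, which isomerizes it, 6.95-fold. Acat2, the thiolase that joins acetyl-CoA units, was 4.27-fold higher, and Fdft1, the squalene synthase, 3.87-fold. The kinases of mevalonate differed least. Mvk was 2.10-fold higher and lost its call with the OT mice alone (0.81 log2 units), and Pmvk fell just short of the fold at 0.97 log2 units.

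From squalene to cholesterol, 8 of 9 genes were called higher in the ovary. Sc5d (chr9:42251595-42264256), the lathosterol oxidase, stood at 178, 165 and 175 FPKM in OC ovaries and at 189, 191, 237 and 140 FPKM in OT ovaries, all above the highest uterus at 51.6 FPKM. Its difference was 3.84 log2 units (standard error 0.26, adjusted p = 6.86e-08, limma), 14.3-fold. Msmo1 (chr8:64718139-64733792), which removes methyl groups from the sterol ring, stood at 186, 141 and 155 FPKM in OC ovaries and at 145, 194, 194 and 136 FPKM in OT ovaries. Its uteruses lay between 6.80 and 40.1 FPKM, so the ranges were apart, and the difference was 3.76 log2 units (standard error 0.27, adjusted p = 1.19e-07, limma).

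The other enzymes of this stretch followed in order. Dhcr7, which makes cholesterol from 7-dehydrocholesterol, was 8.67-fold higher in the ovary, Sqle, the squalene epoxidase, 8.23-fold, and Cyp51, the lanosterol demethylase, 7.22-fold. Lss, which closes the rings, was 6.59-fold higher, Nsdhl, a sterol dehydrogenase, 3.60-fold, and Tm7sf2, a sterol reductase, 3.34-fold. The Tm7sf2 value is uncertain, since Vps51 overlaps it on the same strand. Ebp, the sterol isomerase, differed by 0.58 log2 units and was not called.

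Storage and sensing genes split. Soat1 (chr1:156424525-156474331), which esterifies cholesterol for storage in droplets, was the second highest member in the ovary, at 442, 264 and 319 FPKM in OC mice and 387, 307, 315 and 305 FPKM in OT mice. In the uterus it stood at 35.6, 35.0 and 35.8 FPKM in OC mice and at 22.4, 30.4, 41.0 and 32.0 FPKM in OT mice. No ovary came near a uterus, and the difference was 3.32 log2 units (standard error 0.14, adjusted p = 4.73e-10, limma). Scap, the escort of SREBP2, was 5.71-fold higher in the ovary with ranges apart, at 83.5 to 120 FPKM against 14.8 to 21.1 FPKM. Srebf2, which encodes SREBP2, differed by 0.58 log2 units. Insig1 was 2.90-fold higher in the ovary, a call it lost with the OT mice alone (0.84 log2 units). Insig2, its homolog, was lower in every ovary than in every uterus (-0.60 log2 units, standard error 0.08, adjusted p = 5.09e-05, limma).

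None of the LXR and efflux genes and, apart from Soat1, none of the transport genes differed by 2-fold between the tissues. Nr1h2, which encodes LXRβ, differed by 0.03 log2 units (95% confidence interval -0.16 to 0.23), and Nr1h3, which encodes LXRα, by -0.17 (-0.61 to 0.27). Among LXR targets, Abca1, a cholesterol exporter, differed by 0.19 log2 units (-0.13 to 0.50) and Abcg1, another exporter, by 0.83 (0.40 to 1.25). Mylip, the E3 ligase that degrades lipoprotein receptors, was lower in every ovary than in every uterus, by 1.99-fold. Of the lysosomal genes, Npc1, Npc2 and Lipa, which free sterol from lipoproteins, differed by 0.06, 0.17 and 0.18 log2 units, and their ranges overlapped. Stard4, a soluble sterol carrier, was 1.66-fold higher in the ovary with ranges apart.

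**Figure D1:**
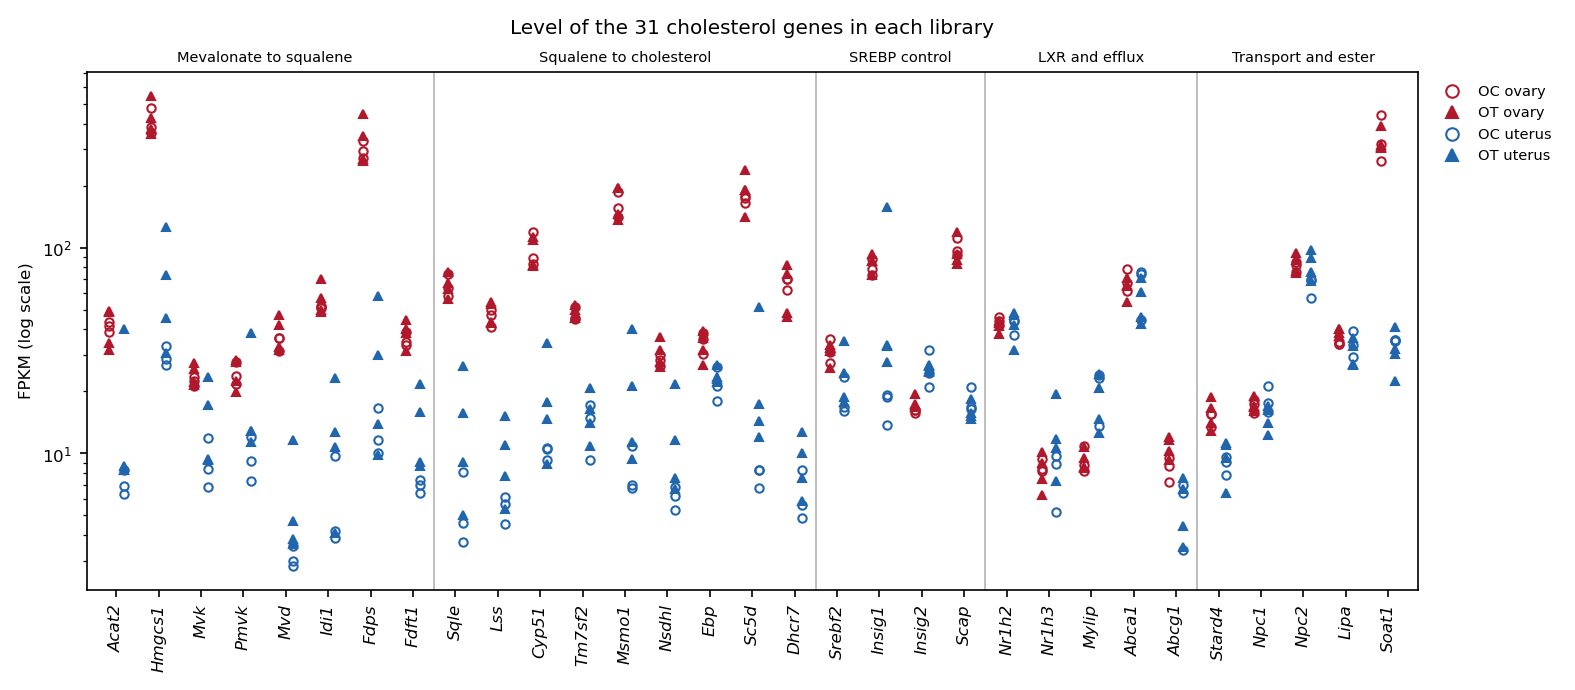
FPKM of each of the 31 genes in each of the 14 libraries, on a log axis, with ovaries in red and uteruses in blue, OC as open circles and OT as filled triangles, and genes grouped by role. The 17 synthesis genes stand higher in the ovary on average, with ranges that overlap in Acat2, Mvk, Pmvk and Ebp. In the other synthesis genes, Scap, Stard4 and Soat1, every ovary stands above every uterus. In Insig2 and Mylip every ovary stands below every uterus.

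Within the ovary, Hmgcs1 (356 to 547 FPKM), Soat1 (264 to 442 FPKM) and Fdps (264 to 445 FPKM) overlapped in their ranges and stood at the top. The next member, Sc5d, did not reach Fdps. Mylip and Nr1h3 were at the bottom, with ranges of 8.26 to 10.9 and 6.31 to 10.1 FPKM that overlapped. The uterus had another order, with Npc2 (57.0 to 97.1 FPKM), Abca1 (42.5 to 76.4 FPKM) and Nr1h2 (31.9 to 48.3 FPKM) at the top, each range overlapping the next. The 17 synthesis genes together summed to 1420 to 2071 FPKM in ovaries and to 155 to 589 FPKM in uteruses.

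Other genes of sterol handling were taken from a list of 29, of which 28 were tested and 5 were called higher and 3 lower in the ovary. Among the higher ones were Hsd17b7 (7.30 log2 units), which acts both in sterol and in estradiol synthesis, Scarb1 (4.20), the receptor that takes up cholesterol from HDL, Gramd1b (2.32), which moves cholesterol from the plasma membrane to the endoplasmic reticulum, and Ch25h (1.74), which makes 25-hydroxycholesterol. The lower ones were the sterol hydroxylases Cyp27a1 (-1.78) and Cyp7b1 (-1.05) and the lipoprotein receptor Vldlr (-1.08). The list's median was 0.21 log2 units.

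The comparison of OT with OC asked whether AMSC-CM was followed by a change in each tissue. In the ovary, none of the 31 genes was called, and the estimates lay between -0.15 and 0.35 log2 units. Their median was 0.04, against -0.01 over 14415 tested genes, with 21 estimates above 0 and 10 below. The cutoffs were those of the study, a 2-fold change together with an unadjusted p of at most 0.05, here by limma. Of all tested genes, 0.368% met them as higher and 0.0832% as lower, and 46.6% had an estimate above 0. At an unadjusted p under 0.05 alone there were 2 members, both higher, against 4.51% of all genes in either direction and 2.6% higher, and at an adjusted p under 0.05 there were 0 members and 0% of all genes.

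Those 2 genes were Abcg1 and Lipa. Abcg1 (chr17:31057675-31117988) stood at 9.46, 8.67 and 7.30 FPKM in OC ovaries and at 9.26, 10.3, 11.6 and 12.1 FPKM in OT ovaries. Only OT1 lay inside the OC range, and the estimate was 0.35 log2 units (standard error 0.13, 95% confidence interval 0.05 to 0.64, adjusted p = 0.997, limma). Lipa (chr19:34492318-34527474), the lysosomal lipase that frees cholesterol from its esters, stood at 34.9, 34.0 and 33.9 FPKM in OC ovaries and at 38.4, 40.0, 37.2 and 40.2 FPKM in OT ovaries. The groups did not overlap, and the estimate was 0.19 (standard error 0.06, 95% confidence interval 0.05 to 0.32, adjusted p = 0.997, limma). Insig2 also had groups that did not overlap, at 15.7 to 16.3 FPKM in OC and 16.8 to 19.5 FPKM in OT ovaries. That made 2 of 31 members with every OT ovary above every OC ovary, against 2.78% of all genes. Macrophage markers were higher in OT ovaries as well: all 12 had estimates above 0, with a median of 0.44. Their sum was 337 to 451 FPKM in OC and 442 to 629 FPKM in OT. Among the OT ovaries the mean of the macrophage markers was highest in OT4, as were Abcg1 and Lipa. It was lowest in OT3, as was Lipa, while Abcg1 was lowest in OT1 and Insig2 was highest in OT3. The part of the macrophage markers in the result was not tested.

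The synthesis genes of the ovary differed more within the OT group than between the groups. In OT2, 15 of the 17 lay above every OC ovary, and in OT3 it was 13. In OT4, 11 of the 17 lay below every OC ovary, and in OT1 it was 7. For single ovaries the share over all genes was not worked out, so these counts have no background. The mean over the 17 genes was 0.26 log2 units above the OC mean in OT2 and 0.22 above it in OT3, and the values for OT1 and OT4 were -0.13 and -0.18. Dhcr7 had the lowest estimate of the members (-0.15 log2 units) and showed this split most plainly, at 62.1, 70.0 and 70.5 FPKM in OC ovaries and at 48.3, 82.4, 74.5 and 45.9 FPKM in OT ovaries. OT1 and OT4 stood below the OC range and OT2 and OT3 above it. Hsd17b7 was likewise lowest in OT1 and OT4, at 238 and 209 FPKM, with the other 5 ovaries between 290 and 336 FPKM.

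In the uterus, 4 of the 31 genes were called higher in OT and 0 lower, against 2.23% and 0.664% of the 14151 tested genes. They were Insig1, Sc5d, Msmo1 and Hmgcs1. Estimates of all 17 synthesis enzymes were above 0, as were those of 51.1% of all genes, with a median of 0.81 log2 units from acetyl-CoA to squalene and 0.75 from squalene to cholesterol. Over the 31 genes the median was 0.59, against 0.01 over all tested genes. No member had an adjusted p under 0.05 by limma, nor did any other gene, and at an unadjusted p under 0.05 there were 5 members, all higher, against 8.2% of all genes in either direction and 5.15% higher.

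Insig1 (chr5:28071363-28078662), itself a target of SREBP2 and a brake on it, stood at 19.3, 18.7 and 13.7 FPKM in OC uteruses and at 157, 27.7, 33.7 and 33.1 FPKM in OT uteruses. Every OT uterus was above every OC uterus, with OT1 far above the rest. The estimate was 1.46 log2 units (standard error 0.56, 95% confidence interval 0.16 to 2.75, adjusted p = 0.573, limma), 2.75-fold. Sc5d stood at 8.27, 8.28 and 6.81 FPKM in OC and at 51.6, 11.99, 14.3 and 17.5 FPKM in OT uteruses. Again the groups did not overlap, and the estimate was 1.34 log2 units (standard error 0.46, 95% confidence interval 0.29 to 2.40, adjusted p = 0.55, limma), 2.54-fold.

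Msmo1 stood at 10.9, 6.80 and 7.03 FPKM in OC and at 40.1, 9.38, 21.4 and 11.4 FPKM in OT uteruses. OT2 lay inside the OC range, and the estimate was 1.10 log2 units (standard error 0.48, 95% confidence interval 0.005 to 2.2, adjusted p = 0.599, limma). Hmgcs1 stood at 33.3, 28.8 and 26.8 FPKM in OC and at 126, 30.8, 73.6 and 45.4 FPKM in OT uteruses. Here too OT2 lay inside the OC range, and the estimate was 1.02 log2 units (standard error 0.43, 95% confidence interval 0.04 to 2.00, adjusted p = 0.599, limma). Both genes carry the sterol regulatory element printed above. So does Srebf2, whose estimate was 0.32 log2 units (standard error 0.26). The windows of Insig1 and Sc5d, which had larger estimates, held no such element. Of the 14 synthesis genes with a window, only 2 held it.

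Sqle (chr15:59315077-59331192), which makes the first oxygenated sterol precursor, had the third largest estimate, 1.18 log2 units, but its 95% confidence interval of -0.07 to 2.42 held 0. It stood at 8.10, 3.71 and 4.59 FPKM in OC uteruses and at 26.7, 5.03, 15.7 and 9.14 FPKM in OT uteruses. OT2 was again among the OC values. Fdft1 had an unadjusted p under 0.05 by limma and groups that did not overlap, but its estimate of 0.88 log2 units was under the fold. Mvd also had groups apart, so 4 of 31 members had every OT uterus above every OC uterus, against 6.46% of all genes. Of the other synthesis genes, Idi1 had an estimate of 0.97 and Fdps of 0.82 log2 units, and Ebp (0.15) and Tm7sf2 (0.17) had the lowest.

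**Figure D2:**
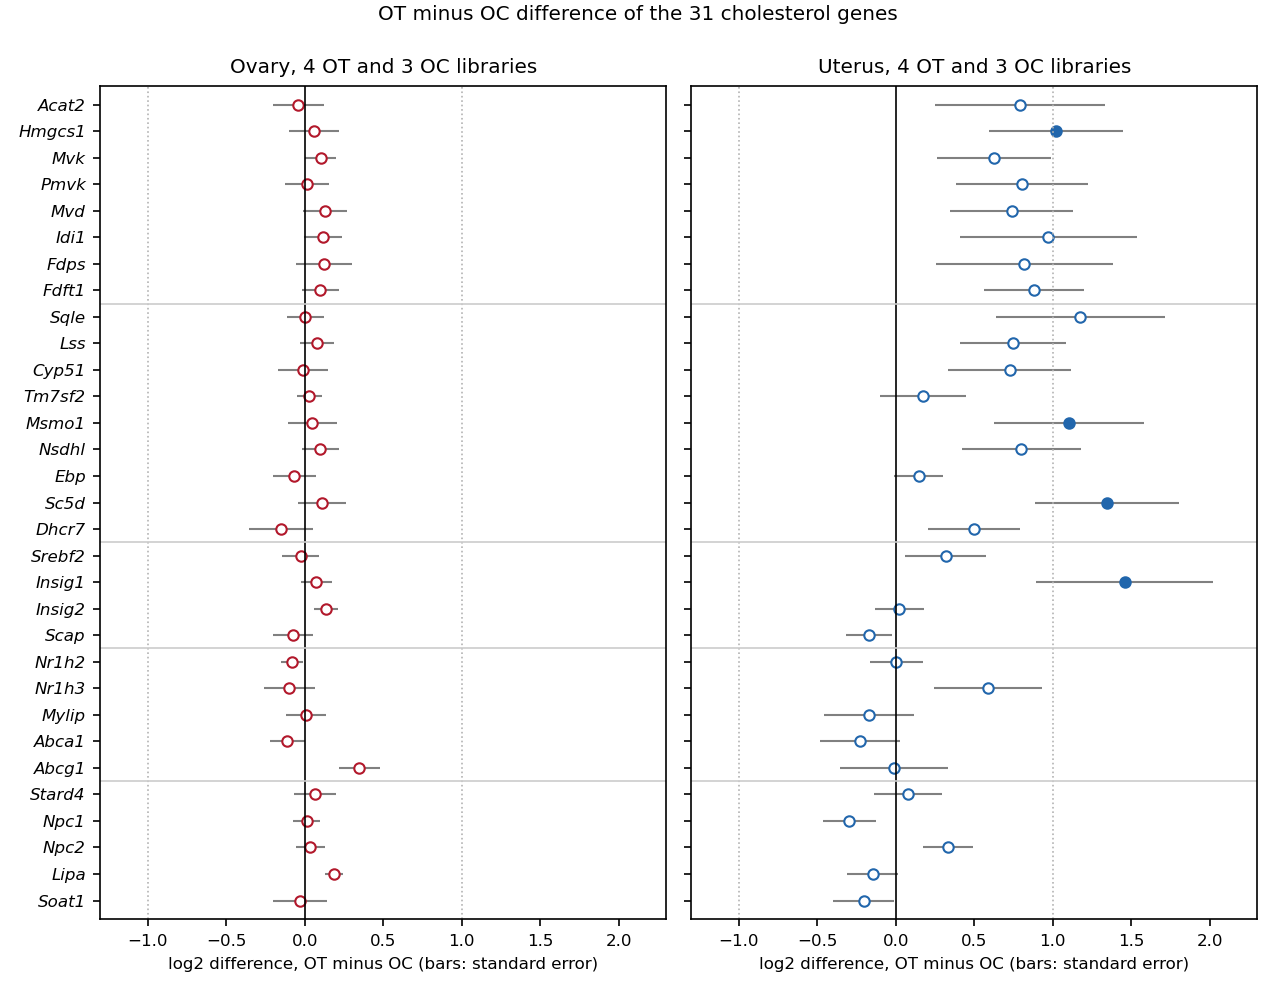
OT minus OC difference (log2 of FPKM + 0.1) of each of the 31 genes in the ovary (left, red) and the uterus (right, blue), with the limma estimate as a point and its standard error as a bar. Filled points are the called genes, dotted lines mark a difference of 1 and -1, and gray lines separate the roles. In the uterus the 17 synthesis genes lie right of 0 and the 4 filled points are Hmgcs1, Msmo1, Sc5d and Insig1, while in the ovary no point is filled.

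The number of called members rested on single uteruses. It was 0 without OT1 or without OC3, 1 without OC2, 2 without OT3 and 10 without OT2. Without OT1, Insig1 and Sc5d had estimates of 0.88 and 0.89 log2 units, under the fold, with an unadjusted p under 0.05 for both by limma. The 17 estimates of the synthesis genes stayed above 0 without each library in turn, with the exception of 16 of 17 without OC3, and their median without OT1 was 0.40 against 0.80 with all libraries.

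The size of the difference varied between OT mice. OT1 held the highest value of 16 of the 17 synthesis genes among the 7 uteruses, Ebp being the exception, and OT3 was next for 12 of them. In OT1 16 of the 17 lay above every OC uterus, in OT3 15, in OT4 11 and in OT2 5. The share over all genes was not worked out for single uteruses, so these counts have no background. The low count of OT2 is not read as a difference. The mean over the 17 genes stood above the OC mean by 1.76 log2 units in OT1, 0.87 in OT3, 0.41 in OT4 and 0.10 in OT2, while the OC uteruses lay between -0.15 and 0.25. OT2, whose ovary was the highest for this mean, was the lowest OT uterus.

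**Figure D3:**
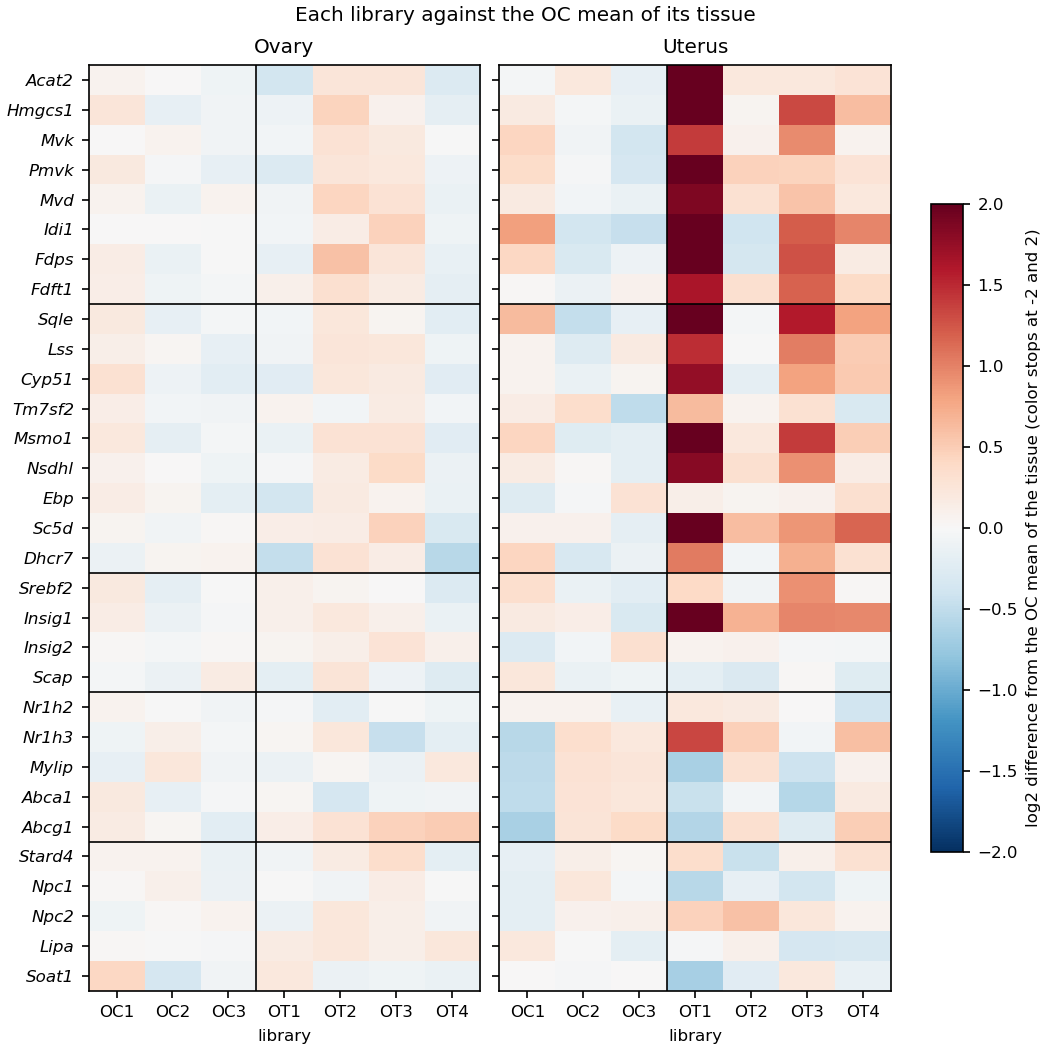
Difference of each library from the OC mean of its tissue (log2 of FPKM + 0.1), genes in rows by role and libraries in columns, with red above and blue below that mean. The OT1 and OT3 uteruses are red over the synthesis genes, and the OT1 and OT4 ovaries are blue over the genes that the OT2 and OT3 ovaries hold in red.

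The sensors and the LXR genes of the uterus showed no shared direction between the groups. Apart from Insig1, the SREBP control genes had estimates of 0.32 for Srebf2, 0.02 for Insig2 and -0.17 for Scap. Nr1h3 had 0.59 log2 units (standard error 0.34), with OT1 at 19.5 FPKM and the other uteruses between 5.20 and 11.7 FPKM. Abca1, Abcg1 and Mylip had estimates of -0.23, -0.01 and -0.17. All of these intervals held 0, and Nr1h2 at 0.00 had a 95% confidence interval of -0.39 to 0.39.

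Abca1, Abcg1 and Mylip, however, moved together among the uteruses. They were lowest in OC1, OT1 and OT3. Abcg1 stood at 3.39 FPKM in OC1, 3.51 in OT1 and 4.44 in OT3, with the other 4 uteruses between 6.42 and 7.58 FPKM. Mylip stood at 13.7, 12.6 and 14.8 FPKM in the same uteruses, with the others between 20.9 and 24.4 FPKM. Abca1 stood at 44.4, 46.1 and 42.5 FPKM, with the others between 60.6 and 76.4 FPKM. OT1 and OT3 were the uteruses with the highest synthesis genes, and OC1 was the highest OC uterus for their mean. Not every LXR or sterol gene shared this pattern. Nr1h3 was lowest in OC1 and OT3, at 5.20 and 7.38 FPKM, but highest in OT1, at 19.5 FPKM. In the list of other sterol genes, Nceh1 was also lowest in OC1, OT1 and OT3, at 8.333, 8.585 and 9.75 FPKM. Lpcat3 was highest in OT1 and OC1, at 36.81 and 31.74 FPKM, and Srebf1 in OT1 and OT3, at 67.34 and 29.65 FPKM. The pattern was seen in the values and was not tested.

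Of the transport and ester genes in the uterus, none was called. Npc2 had an estimate of 0.33 log2 units (95% confidence interval -0.03 to 0.70) and Npc1 of -0.30 (-0.68 to 0.09). Lipa, which was higher in each OT ovary, had -0.15 in the uterus. Soat1 had -0.20, with OT1 lowest at 22.4 FPKM and the other uteruses between 30.4 and 41.0 FPKM, and Stard4 had 0.08.

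In the list of other sterol genes, 1 was called higher and 1 lower in the OT uterus, with a list median of -0.10 log2 units. Hsd17b7 stood at 0.737, 1.15 and 1.21 FPKM in OC uteruses and at 6.15, 2.32, 2.93 and 1.80 FPKM in OT uteruses. Its groups did not overlap, and the estimate was 1.46 log2 units (standard error 0.42, 95% confidence interval 0.48 to 2.43, adjusted p = 0.518, limma). Gramd1c, a relative of Gramd1b, was lower in every OT uterus than in every OC uterus, at 1.06 to 2.56 FPKM against 3.41 to 4.15 FPKM (log2 difference -1.02, standard error 0.31, adjusted p = 0.539, limma). In the OT ovary 0 of the 28 tested genes of this list were called.

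Several lists of cell type markers also differed between OT and OC uteruses. By mean log2 difference, only the adipocyte markers of the lists given here had the order of the synthesis genes over the OT uteruses. By summed FPKM they did not: OT2 and OT4 stood at 1303 and 1291 FPKM for the adipocyte markers. For the synthesis genes they stood at 178 and 225 FPKM. All 12 adipocyte markers were called higher in OT uteruses, with a median of 3.64 log2 units, and their mean difference from OC had the order of the synthesis genes, 5.49 in OT1, 3.52 in OT3, 2.68 in OT4 and 2.22 in OT2. In the OC uteruses it was -0.93 in OC1, the highest of the 3 for the synthesis genes, 0.60 in OC2 and 0.32 in OC3. Of 10 markers of stratified squamous epithelium, 7 of 8 tested were called higher, and their sum was 7.53 to 16.5 FPKM in OC and 48.5 to 798 FPKM in OT uteruses, highest in OT3. Sprr3 was listed at 0 in every uterus. Of 12 macrophage markers 1 was called, with a sum of 401 to 468 FPKM in OC and 474 to 1459 FPKM in OT, highest in OT2. Smooth muscle markers had 0 of 8 called and a median of 0.48, and of 8 markers of uterine and glandular epithelium 1 was called higher, with a median of -0.36. Of 6 genes that mark regions of the reproductive tract, 5 were tested. Hoxa10, Hoxa11 and Emx2, which are expressed in the uterus, were lower in every OT uterus than in every OC uterus, with estimates of -0.46, -0.45 and -0.44 log2 units and an adjusted p of 0.549, 0.55 and 0.587 by limma. Hoxa10 stood at 214 to 236 FPKM in OC and at 138 to 186 FPKM in OT uteruses. Hoxa13, which is expressed toward the cervix and vagina, was called higher (1.89 log2 units, adjusted p = 0.589, limma), at 0.443, 0.609 and 1.98 FPKM in OC and at 6.70, 0.958, 7.55 and 2.47 FPKM in OT uteruses, with OT1 and OT3 the highest. Hoxd13 was listed at 0 in all uteruses except OT1. The list summed to 342 to 356 FPKM in OC and to 215 to 294 FPKM in OT uteruses. The part of any of these in the result was not tested. In the ovary, 5 of 12 adipocyte markers were called higher in OT, with a sum of at most 1885 FPKM, against 12000 FPKM in the uterus.

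**Figure D4:**
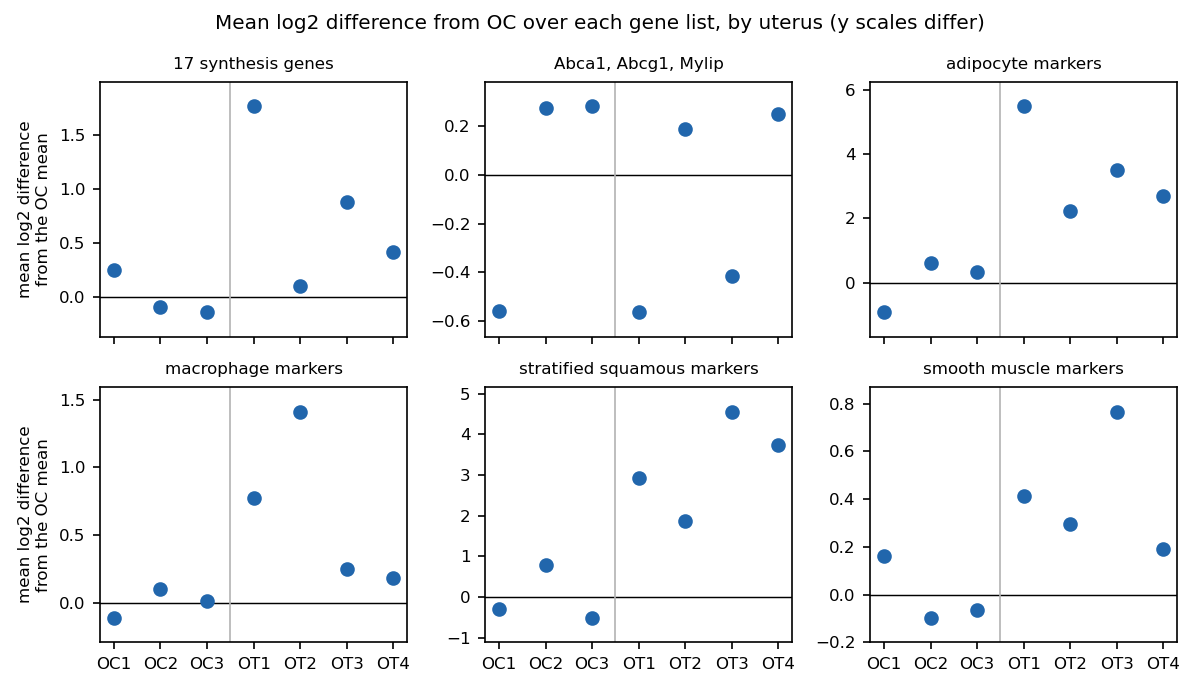
Mean log2 difference from the OC mean in each of the 7 uteruses, over the 17 synthesis genes, over Abca1, Abcg1 and Mylip, and over 4 lists of cell type markers, with a y axis of its own in each panel. The synthesis genes and the adipocyte markers stand highest in OT1 and next in OT3, and Abca1, Abcg1 and Mylip stand lowest in OC1, OT1 and OT3.

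The difference between the tissues in the OT minus OC change was tested itself, in a fit of all 14 libraries. It was called for 2 of the 31 genes, both larger in the uterus, against 1.28% of 14557 tested genes, with no gene at an adjusted p under 0.05 (0%). Insig1 differed by 1.38 log2 units (standard error 0.62, 95% confidence interval 0.04 to 2.73, adjusted p = 0.844, limma) and Sc5d by 1.24 (standard error 0.52, 95% confidence interval 0.11 to 2.36, adjusted p = 0.844, limma). In the ovary their own estimates were 0.08 and 0.11. Hmgcs1 and Msmo1 differed by 0.96 and 1.05 log2 units, with 95% confidence intervals that held 0 (-0.11 to 2.03 and -0.12 to 2.23). The differences of all 17 synthesis genes were above 0, as for 52.1% of all genes. The count was 0 without OC1, OC2, OC3, OT1 or OT4 and 9 without OT2, each mouse left out in both tissues. Hsd17b7, from the other list, differed by 1.64 log2 units (standard error 0.46, 95% confidence interval 0.65 to 2.62, adjusted p = 0.844, limma).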

How the data were processed

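The deposited values were FPKM per gene and library, which the authors made from stranded, rRNA-depleted libraries with Skewer 0.2.2, STAR 2.5 and Cufflinks 2.2.1 on mm10, counting by strand. They were not scaled further. Cufflinks estimates are fractional, so reads could not be recovered and neither depth nor the Cuffdiff test of the study could be had. Symbols and positions came from GENCODE M21, which matched all 21853 genes. With limma 3.58.1 (R 4.3.3, trend), genes whose mean reached 0.5 FPKM were fitted on log2(FPKM + 0.1), which understates the change of low genes, and p-values were adjusted by the Benjamini-Hochberg method over all tested genes. Libraries were grouped by their labels, and an ovary and a uterus with the same group and number were taken to be from the same mouse. The labels do not state this. The correlation of their deviations was 0.074 to 0.254, and that of unlike numbers within a group was -0.235 to 0.248. The main fits over both tissues treated the 14 libraries as independent. Values in every library were given for members called in OT against OC, the 3 per tissue with the largest estimates and the 5 with the largest tissue difference. Fdft1, Insig2, Abca1, Mylip, Nr1h3, Nceh1, Lpcat3, Srebf1 and the Hox and Emx2 genes were chosen once their values had been seen. The members and lists were chosen with earlier results of these data known. Other pseudocounts, filters, scalings and fits, a block and leaving out libraries were tried. Python 3.11.15, pandas 2.3.3 and matplotlib 3.10.9 were used for the other steps.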

Additional observations from a re-analysis of the deposited data

Results flagged for a closer look

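Of 62 sets of 4 OT libraries, 1 for each member and tissue, 4 had a library far from the other 3 by Dixon's test, and chance gives about 1 in 20 sets. In the uterus it was OT1 each time, at 40.2 FPKM for Acat2, 38.3 FPKM for Pmvk and 157 FPKM for Insig1, and in the ovary it was OT1 at 387 FPKM for Soat1. The OT minus OC change differed between uterus and ovary by 1.24 log2 units for Sc5d and by 1.38 for Insig1 at an unadjusted p of at most 0.05 by limma, with an adjusted p of 0.844 for both.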

How the results depend on the processing

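No member was called in the ovary under any of the 16 alternatives, and in the comparison of ovary with uterus 17 to 20 members were called under each of 17. In the uterus the 4 called members became 2 with no filter on low values and 0 to 10 without 1 library, and other pseudocounts, filters, scalings and fits gave 3 to 5. The difference between tissues was called for 1 member with no filter and for 0 to 9 without 1 mouse. Same-numbered OC and OT mice share only a number (correlations -0.0275 to 0.331). With that number as a replicate block and OT4 left out, 8 members were called in the uterus and 0 in the ovary. With the mouse as a block, 18 members were called between tissues and 2 for the difference between tissues. Without 1 library, the members' median ran from -0.01 to 0.11 log2 units in the ovary and from 0.32 to 0.72 in the uterus. No gene called in a comparison changed direction, but 18 members that were not called did in the ovary, mostly around 0. Of 480 values of named genes under alternatives, pooled over all comparisons, 438 kept their call and direction, 35 lost the call and 7 gained it. Most of these values were differences of ovary from uterus. The pooled count therefore says little about how the OT against OC calls held. The precision is limited by 3 and 4 mice per group, and the part of sequencing depth in it is unknown.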
